A study of Arabidopsis thaliana with 12 samples.

Results

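The genes described here are encoded by the plastid genome of Arabidopsis thaliana, the small circular genome that plastids keep from their bacterial ancestor. They were taken from a list of 57 plastid gene symbols, apart from ribosomal protein and RNA genes, and a gene counted as measured where the array's probe-to-gene table gives it a probe set of its own. This held for 54 of the 57, with 1 probe set each, out of 13513 probe sets with a single gene on the array. The remaining 3, ycf1, ycf2 and ndhB, have probe sets listed with 2 gene copies. The 54 comprised 7 genes of photosystem I and its assembly, 15 of photosystem II, 7 of the cytochrome complex and cytochrome assembly, 6 of the ATP synthase, 10 of the NDH complex, 4 of the plastid RNA polymerase and 5 others.

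Expression was measured on 12 single-colour Affymetrix ATH1 arrays, 3 for each of 4 groups of Arabidopsis, ecotype C24, with a wild-type background. All groups carried the enhancer trap J0571, in which a GAL4 activator and a green fluorescent reporter mark the ground tissue of the root, that is cortex and endodermis, and fluorescent cells were sorted from root tips of seedlings at 5 days. The control carried J0571 alone. In each other group J0571 drove an added copy of a ground tissue transcription factor through UAS sites: BLJ in one, JKD in the next and SCR in the last. The added copy was thus driven where J0571 is active. The replicates are labelled biological, and the comparison asks how plastid transcripts in these sorted cells differed when 1 factor was driven. Because J0571 marks cells in all lines, fewer cells of a kind and less RNA per cell cannot be told apart.

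Root cells hold plastids that do not photosynthesise, among them starch-storing amyloplasts, and these plastids still make fatty acids, amino acids and hormone precursors. Their genome is read by a pair of RNA polymerases. The plastid-encoded enzyme has a bacterial type of core, made from rpoA, rpoB, rpoC1 and rpoC2, and reads most photosynthesis genes; the nucleus-encoded enzyme is of a phage type and has main promoters ahead of rpoB, accD and clpP. Many plastid genes are co-transcribed in clusters. Most plastid transcripts lack a stable poly(A) tail, the feature that standard labelling for this array primes on, so an intensity need not follow the abundance of a plastid transcript.

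The arrays correlated with each other at r between 0.916 and 0.992. The spread of log2 intensities differed between groups: its SD on the deposited scale was 0.676 to 0.703 in control cells, 0.872 to 0.968 in BLJ-driven cells, 0.811 to 1.0 in JKD-driven cells and 0.668 to 0.904 in SCR-driven cells, the lowest of these being SCR 2. Quantile normalization removes such a difference, and directions for many plastid genes depend on it, as given below. The difference between the 3' and 5' probe sets of actin was 1.48 to 1.82 on the log2 scale on the control arrays and 1.57 to 2.25 on the others. For GAPDH it was 1.99 to 2.44 against 1.46 to 2.65. The 25S ribosomal RNA probe set read 10.4 to 13.0 on the control arrays and 12.3 to 22.2 on the others. Their part in the plastid gene results was not tested. Of the driven genes, SCR has no named probe set here. The probe set of the BLJ locus AT1G14580 was lower on the arrays labelled BLJ, by a log2 fold change of -0.11 (adjusted p = 0.0333), and that of JKD differed by -0.02 on the arrays labelled JKD (adjusted p = 0.701). Whether these probes reach the driven copies is not known here, so the arrays do not check the labels, and each direction below is that of arrays labelled BLJ, JKD or SCR.

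Ground tissue identity could be checked with few markers. Of 11 cortex and endodermis markers listed, 7 had a named probe set. The endodermis markers GSO1 and AT1G61590 read 2.94 to 6.59 and 3.89 to 6.71 across the 12 arrays. The cortex marker AT1G09750 read 0.995 to 2.33, and the other 4 cortex loci lay between 0.719 and 1.24, near the median probe set mean of 0.828. The table carries no detection calls, so whether those 4 were expressed is not settled.

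Across the 54 plastid genes, 5 fell in the BLJ line and 4 of those 5 fell in the JKD line, while none rose in any line. The genes were accD, rbcL, petN, psbL and atpI in BLJ, and rbcL, petN, psbL and atpI in JKD. In the SCR line none of the 54 passed an adjusted p of 0.05, and rbcL came nearest with an adjusted p of 0.0561 by limma. ycf2, outside the 54 because its probe set is listed with both copies, passed in all 3 lines. Its log2 fold change in SCR was -0.18 (adjusted p = 0.0409 by limma). With the replicate number as a block, 10, 9 and 7 plastid genes were called lower in BLJ, JKD and SCR, beside 2.76%, 2.27% and 0.879% of all probe sets, so the absence of calls in SCR did not hold in that fit. Same-numbered arrays deviated together in all 3 pairs for JKD with control. For BLJ and SCR with control the arrays numbered 1 did not, with correlations of -0.13 and -0.12. JKD 1, however, deviated more with control 2 than with control 1, so the pairing is not settled. Over all 15923 probe sets tested, 4.26% were called in BLJ against control, with 2.44% lower and 1.82% higher. Under quantile normalization, 5 of 54 lower is thus above the background and 0 higher is near it. In JKD the share called was 2.74%, with 1.88% lower and 0.867% higher, and in SCR it was 0.396%, with 0.226% lower and 0.17% higher. Among the plastid genes 15, 13 and 19 had an unadjusted p under 0.05 in BLJ, JKD and SCR, where the shares over all probe sets were 19.1%, 19.1% and 16.6%. All of these plastid genes were lower, and the background shares that were lower at that p were 9.68%, 10.1% and 8.6%. All 54 genes passed the filter on low values, which removed 30% of the probe sets by their mean. Under the other scalings lower calls were not above the background. On the deposited scale 2 of 54 were called lower in BLJ and 3 in JKD, beside 8.83% and 12.1% of all probe sets. After median centring 1 was called lower in each, beside 3.62% and 4.75%.

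The differences were small and mostly downward on the quantile-normalized scale. The median log2 fold change over the 54 genes was -0.06 in BLJ, -0.05 in JKD and -0.12 in SCR, beside 0.00, 0.01 and 0.00 over all probe sets. Leaving out 1 array moved this median between -0.14 (without BLJ 2) and -0.03 (without BLJ 3) in BLJ, between -0.08 (without control 1) and -0.02 (without JKD 1) in JKD, and between -0.19 (without SCR 2) and -0.09 (without SCR 3) in SCR. On the deposited scale it was -0.03, 0.02 and -0.06, and after median centring 0.03, 0.08 and -0.03, where the medians over all probe sets were 0.02, 0.02 and 0.01 and then 0.07, 0.08 and 0.04. A fold change below 0 was found for 45, 41 and 53 of the 54, beside 47.3%, 46.2% and 48.1% of all probe sets. The plastid genes share arrays, transcripts and plastids, so these counts are not 54 independent observations, and they depend on the scaling described further on. Every array of the line lay below every control array for 13 genes in BLJ, 16 in JKD and 17 in SCR, with background shares of 10.4%, 11.3% and 9.54%. The reverse held for 0, 1 and 0 genes, the 1 being ndhE, with background shares of 10.6%, 11.8% and 9.55%. For 10 genes, ycf4, psbL, psbF, petN, atpI, atpB, rpoC2, rbcL, accD and cemA, all 9 line arrays lay below all 3 control arrays, which held for 2.71% of all probe sets. No plastid gene had all 9 above, which held for 2.46%.

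**Figure D1:**
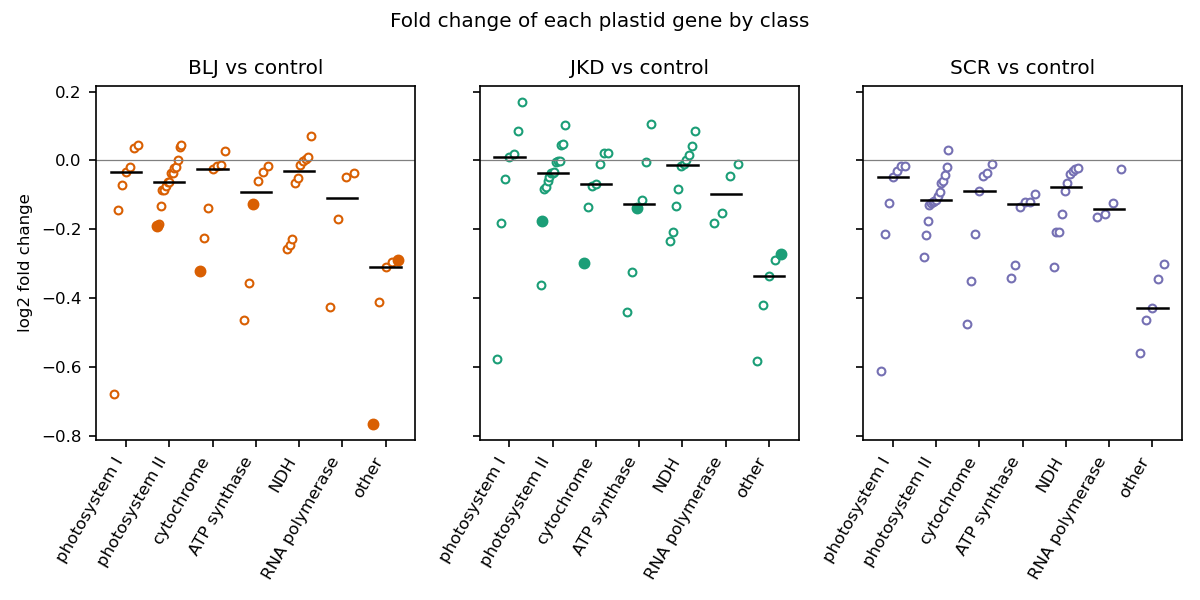
Log2 fold change (vertical axis, log2 of normalized intensity plus 0.703) of each of the 54 plastid genes against the control, grouped by class on the horizontal axis, in the BLJ, JKD and SCR lines. Filled points are genes with an adjusted p under 0.05 and the black bars are class medians; the class named other lies lowest, at -0.31, -0.34 and -0.43.

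The 5 genes outside the electron transport and polymerase classes had the largest median difference. Their medians were -0.31 in BLJ, -0.34 in JKD and -0.43 in SCR, and all 5 were below 0 in each line. The same medians were -0.09, -0.06 and -0.15 on the deposited scale and -0.03, 0.01 and -0.12 after median centring. accD (ArthCp031) encodes a subunit of the plastid acetyl-CoA carboxylase, which starts fatty acid synthesis. Its normalized intensity was 5.15, 5.68 and 5.93 in control cells, 2.99, 3.89 and 2.27 in BLJ-driven cells, 3.13, 3.84 and 3.54 in JKD-driven cells and 3.54, 4.39 and 2.88 in SCR-driven cells. Every line array was below every control array, and the lines overlapped each other. Against a control mean of 5.59 ± 0.398 (SD, n = 3) the BLJ mean was 3.05 ± 0.816, a log2 fold change of -0.77 ± 0.15 (SE; adjusted p = 0.016 by limma). In JKD and SCR accD did not pass the test, at -0.58 (adjusted p = 0.0607, or 0.0282 with the replicate block) and -0.56 (adjusted p = 0.113). The call in BLJ was lost when BLJ 1 or BLJ 3 was left out. accD was also called in SCR with the block.

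rbcL (ArthCp030), next to accD in the genome, encodes the large subunit of Rubisco, the carbon-fixing enzyme. It read 1.81, 1.84 and 1.66 in control cells, 1.29, 1.47 and 1.2 in BLJ-driven cells, 1.32, 1.35 and 1.37 in JKD-driven cells and 1.2, 1.47 and 1.27 in SCR-driven cells. The control arrays stood above all others, and the 9 line arrays occupied 1 range. rbcL fell in BLJ by 0.29 on the log2 scale (SE 0.06, adjusted p = 0.0188) and in JKD by 0.27 (SE 0.06, adjusted p = 0.0351). In SCR the difference was of like size, -0.30, with an adjusted p of 0.0561, and rbcL was called there with the replicate block. The call in BLJ was lost without control 1, BLJ 1 or BLJ 3. That in JKD held in 5 of 12 fits that left out 1 array, being lost without control 1, control 2, BLJ 1, SCR 3 or any JKD array.

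clpP (ArthCp048), a catalytic subunit of the plastid Clp protease, was among the brightest probe sets of the table. It read 12.5, 15.3 and 12.7 in control cells, 9.52, 13.0 and 9.91 in BLJ-driven cells, 9.09, 11.5 and 9.19 in JKD-driven cells and 9.97, 12.7 and 8.99 in SCR-driven cells. BLJ and SCR overlapped the controls through their second arrays, and JKD did not overlap. No difference passed the test, with log2 fold changes of -0.31, -0.42 and -0.34 and adjusted p of 0.313, 0.166 and 0.294. With the replicate block clpP passed in JKD (adjusted p = 0.0353). cemA, an envelope membrane protein gene, had -0.41, -0.34 and -0.46 (adjusted p = 0.0656, 0.133 and 0.0888), and passed in JKD with the block (adjusted p = 0.0138). It also passed in BLJ and SCR with the block. matK, the maturase that helps splice plastid introns, had -0.29, -0.29 and -0.43 (adjusted p = 0.545, 0.526 and 0.368) and overlapped the controls in each line.

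**Figure D2:**
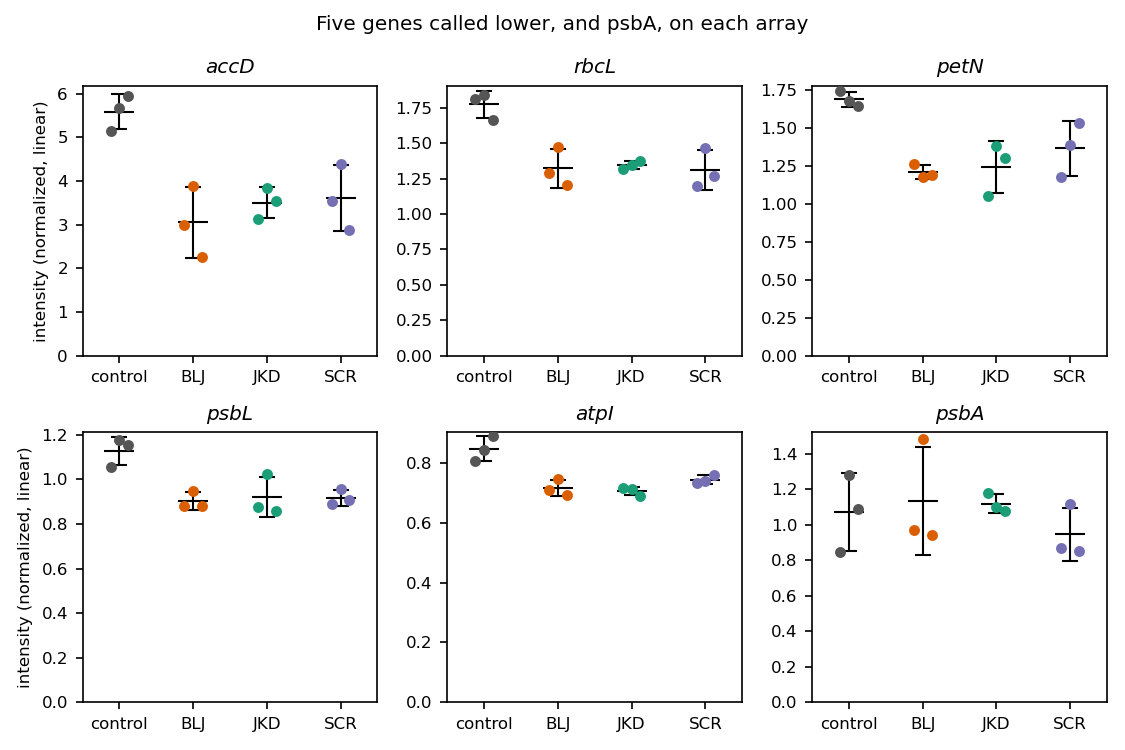
Normalized linear intensity (vertical axis, from 0) on each of the 12 arrays for accD, rbcL, petN, psbL and atpI, the genes called lower in BLJ, and for psbA. Points are arrays, bars are the mean ± SD of 3 arrays per group; the control arrays stand above all line arrays for the called genes, while psbA overlaps.

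In the cytochrome class 1 of 7 genes fell, in BLJ and in JKD. The class supplies the cytochrome b6f complex, which passes electrons between the photosystems, and ccsA, which helps attach haem to c-type cytochromes. Class medians were -0.02, -0.07 and -0.09 in BLJ, JKD and SCR. petN (ArthCp015), a small subunit, read 1.74, 1.68 and 1.65 in control cells, 1.26, 1.18 and 1.19 in BLJ-driven cells, 1.05, 1.38 and 1.31 in JKD-driven cells and 1.18, 1.39 and 1.54 in SCR-driven cells. The lines stayed below the controls, with SCR 3 nearest to them. petN fell by 0.32 in BLJ (SE 0.07, adjusted p = 0.0215) and by 0.30 in JKD (SE 0.07, adjusted p = 0.0407), and had -0.21 in SCR (adjusted p = 0.16). The call in BLJ was lost without control 1 or without any single BLJ array, and that in JKD without any control array or without BLJ 1, BLJ 3, JKD 1, JKD 3 or SCR 2.

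The other cytochrome genes did not pass the test in any line. petA, which encodes cytochrome f, had the lowest value in SCR, -0.48 (adjusted p = 0.195, but called with the replicate block), beside -0.23 and -0.14 in BLJ and JKD. ccsA had -0.14, -0.08 and -0.35 in the same order. petB and petD, for cytochrome b6 and a further core subunit, and the small subunit genes petG and petL lay between -0.09 and 0.03 in all lines.

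In the ATP synthase class 1 of 6 genes fell, again in BLJ and JKD, with class medians of -0.09, -0.13 and -0.13, which turned to 0.08, 0.10 and -0.02 on the deposited scale and to 0.14, 0.17 and 0.02 after median centring. The enzyme makes ATP from the proton gradient across the thylakoid membrane. atpI (ArthCp010), a membrane subunit, had the smallest p of all 54 genes in BLJ and in JKD. It read 0.806, 0.843 and 0.891 in control cells, 0.709, 0.745 and 0.693 in BLJ-driven cells, 0.716, 0.712 and 0.689 in JKD-driven cells and 0.732, 0.738 and 0.761 in SCR-driven cells. These values are dim: the mean of atpI ranked at the 35.4th percentile of all probe sets, and the whole range from lowest to highest array was 0.689 to 0.891. Within that range the groups were separate, each line lying below the controls. The log2 fold changes were -0.13 in BLJ (SE 0.02, adjusted p = 0.00733), -0.14 in JKD (SE 0.02, adjusted p = 0.00965) and -0.10 in SCR (adjusted p = 0.0633). The call in BLJ held in 12 of 12 fits that left out 1 array, and that in JKD in 10 of 12, the exceptions being without JKD 1 and without JKD 3. Under the stricter filter, which removed 50% of the probe sets, atpI was not tested.

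atpB and atpE, the beta and epsilon subunits of the catalytic head, are co-transcribed and were bright. atpB read 6.94, 7.23 and 7.13 in control cells, 5.32, 5.01 and 4.56 in BLJ-driven cells, 4.55, 5.09 and 5.54 in JKD-driven cells and 5.29, 6.88 and 4.44 in SCR-driven cells. All line arrays were lower than the controls, SCR 2 by little. Its log2 fold changes of -0.46, -0.44 and -0.34 did not pass (adjusted p = 0.0627, 0.0841 and 0.216). atpE had -0.36, -0.32 and -0.30 (adjusted p = 0.231, 0.279 and 0.349). atpA, atpF and atpH, which share a cluster with atpI, lay between -0.13 and 0.11 and none was called. The replicate block added calls of atpB in BLJ and of atpI in SCR.

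Photosystem II splits water at the start of the electron transport chain. Of its 15 genes, psbL fell in BLJ and JKD and the other 14 were not called in any line. The class medians were -0.06, -0.04 and -0.12, which became 0.02, 0.05 and -0.05 on the deposited scale and 0.08, 0.11 and -0.02 after median centring. psbL (ArthCp037), a small subunit, read 1.06, 1.18 and 1.15 in control cells, 0.879, 0.949 and 0.879 in BLJ-driven cells, 0.876, 1.02 and 0.861 in JKD-driven cells and 0.890, 0.959 and 0.906 in SCR-driven cells. No line array reached the lowest control, and JKD 2 came closest. The log2 fold changes were -0.19 (SE 0.04, adjusted p = 0.0201), -0.18 (SE 0.04, adjusted p = 0.0389) and -0.18 (adjusted p = 0.0744) in BLJ, JKD and SCR. Without BLJ 1 or BLJ 3 the call in BLJ was lost, and without control 2, control 3, or the first or last array of BLJ, JKD or SCR that in JKD was lost. psbL is co-transcribed with psbE, psbF and psbJ. psbF had -0.13, -0.08 and -0.12, psbE lay between -0.02 and 0.00 and psbJ between 0.03 and 0.05, all without a call. The replicate block added a call of psbL in SCR.

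psbA (ArthCp002) encodes the reaction-centre protein that is damaged by light and replaced fastest in leaves. It read 0.845, 1.28 and 1.09 in control cells, 0.972, 1.49 and 0.943 in BLJ-driven cells, 1.18, 1.10 and 1.08 in JKD-driven cells and 0.867, 1.12 and 0.853 in SCR-driven cells. All groups overlapped, and the spread within the controls was larger than any difference between means. The log2 fold changes were 0.04, 0.05 and -0.10 (SE 0.11, adjusted p = 0.881, 0.85 and 0.661). The core genes psbB, psbC and psbD lay between -0.12 and 0.00 in the 3 lines. psbM, a small subunit, had -0.18, -0.36 and -0.28 (adjusted p = 0.624, 0.265 and 0.432).

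No photosystem I gene was called. Class medians were -0.03, 0.01 and -0.05, close to the values over all probe sets. psaA (ArthCp022), a reaction-centre core protein gene, read 0.847, 0.897 and 0.826 in control cells, 0.857, 0.791 and 0.859 in BLJ-driven cells, 0.775, 0.825 and 0.798 in JKD-driven cells and 0.853, 0.858 and 0.806 in SCR-driven cells. The controls were separate from JKD and overlapped BLJ and SCR, and the log2 fold changes were -0.02, -0.05 and -0.02 (SE 0.03, adjusted p = 0.758, 0.277 and 0.792). psaB, its partner in the core and the cluster, had 0.04, 0.08 and -0.12.

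The photosystem I class spanned the widest range because of psaI, a small subunit gene 1 step from accD in the genome. psaI read 4.24, 5.26 and 5.10 in control cells, 2.28, 4.73 and 1.87 in BLJ-driven cells, 3.05, 3.34 and 2.70 in JKD-driven cells and 2.75, 4.01 and 2.24 in SCR-driven cells. BLJ 2 lay inside the control range and the remaining 8 line arrays lay below it. The log2 fold changes, -0.68 ± 0.23, -0.58 ± 0.23 and -0.61 ± 0.23 (SE), did not pass (adjusted p = 0.118, 0.191 and 0.209). The assembly factor genes differed from each other: ycf4 had -0.15, -0.18 and -0.22 (adjusted p = 0.14, 0.0796 and 0.0836; with the block 0.035 in JKD) and ycf3 had 0.05, 0.17 and -0.03. psaC and psaJ lay between -0.07 and 0.02. The block also added calls of psaI in BLJ and of ycf4 in SCR.

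None of the 10 NDH genes was called, and the class medians were -0.03, -0.01 and -0.08. The complex carries electrons around photosystem I and into the plastoquinone pool. ndhD and ndhG had the smallest p in the class. ndhD (ArthCp074) read 1.35, 1.81 and 1.28 in control cells, 1.08, 1.31 and 1.01 in BLJ-driven cells, 1.12, 1.39 and 1.04 in JKD-driven cells and 1.05, 1.31 and 1.18 in SCR-driven cells. The second array of each line reached into the control range. ndhG (ArthCp077) read 1.5, 1.69 and 1.45 in control cells, 1.28, 1.33 and 1.04 in BLJ-driven cells, 1.15, 1.44 and 1.04 in JKD-driven cells and 1.01, 1.25 and 1.49 in SCR-driven cells. BLJ and JKD lay below the controls and SCR overlapped them through SCR 3. On the log2 scale the differences were -0.25, -0.21 and -0.21 for ndhD (adjusted p = 0.163, 0.249 and 0.286; with the block 0.0384 in JKD) and -0.23, -0.24 and -0.21 for ndhG (adjusted p = 0.194, 0.189 and 0.287). ndhI had -0.26, -0.13 and -0.31, and the other 7 lay between -0.16 and 0.09. ndhD was also called in BLJ with the block.

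The 4 genes of the plastid RNA polymerase core were below 0 in all lines under quantile normalization and none was called, with medians of -0.11, -0.10 and -0.14. After median centring these medians were 0.06, 0.07 and -0.02. rpoC2 (ArthCp012) read 1.21, 1.17 and 1.21 in control cells, 0.979, 1.12 and 0.868 in BLJ-driven cells, 0.958, 1.08 and 0.978 in JKD-driven cells and 0.933, 1.10 and 0.968 in SCR-driven cells. The controls stood above all line arrays, and the log2 fold changes were -0.17, -0.15 and -0.16 (SE 0.05, adjusted p = 0.0893, 0.13 and 0.168). rpoC2 was called in BLJ with the replicate block. Its cluster partner rpoC1 (ArthCp013) read 1.11, 1.47 and 1.30 in control cells, 1.13, 1.58 and 0.993 in BLJ-driven cells, 1.2, 1.5 and 1.13 in JKD-driven cells and 1.09, 1.34 and 0.953 in SCR-driven cells, so all groups overlapped. rpoC1 had log2 fold changes of -0.05, -0.01 and -0.12 (SE 0.11, adjusted p = 0.869, 0.964 and 0.602).

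rpoB (ArthCp014), first of that cluster, read 0.947, 0.923 and 0.890 in control cells, 0.874, 0.952 and 0.818 in BLJ-driven cells, 0.822, 0.927 and 0.861 in JKD-driven cells and 0.867, 0.904 and 0.906 in SCR-driven cells. The groups overlapped, with log2 fold changes of -0.04, -0.05 and -0.02 (SE 0.03, adjusted p = 0.632, 0.48 and 0.748). rpoA (ArthCp055), which lies in another cluster, read 4.26, 7.52 and 7.10 in control cells, 4.64, 6.55 and 2.68 in BLJ-driven cells, 4.96, 6.04 and 5.01 in JKD-driven cells and 5.13, 6.98 and 4.33 in SCR-driven cells. Control 1 was lower than every line array except BLJ 3. Its fold changes on the log2 scale, -0.43, -0.18 and -0.16 with an SE of 0.25, had adjusted p of 0.4, 0.74 and 0.785.

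Sorted by promoter type, the 5 measured genes with a main promoter for the nucleus-encoded polymerase, or co-transcribed from one, were accD, clpP, rpoB, rpoC1 and rpoC2. All 5 were below 0 in every line under quantile normalization, though clpP and rpoC1 were above 0 in BLJ and JKD under both other scalings, with medians of -0.17, -0.15 and -0.16 and 1, 0 and 0 called. The genes of this group with the lowest values were the bright accD and clpP. rpoB and rpoC1 overlapped the controls in each line.

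accD and psaI, which had the 2 lowest fold changes in every line on the quantile-normalized scale, are neighbours in the genome. In gene order, atpE, atpB, rbcL, accD, psaI, ycf4, cemA and petA follow one another. Under quantile normalization each was below 0 in all 3 lines, from -0.77 to -0.14. Genes elsewhere reached as low as members of this stretch, among them rpoA in BLJ (-0.43), clpP and psbM in JKD (-0.42 and -0.36) and matK in SCR (-0.43). The psaI cluster of 4 genes had medians of -0.32, -0.26 and -0.47 and the atpB cluster of 2 genes -0.41, -0.38 and -0.32. For the psbB cluster of 5 genes the medians were -0.04, -0.04 and -0.07, and for the rpoB cluster of 3 genes -0.05, -0.05 and -0.12. The stretch was picked out after its values were seen and was not tested, and co-transcribed neighbours are not independent measurements. It also depended on the scaling. Within it, only accD, psaI and cemA were below 0 in all 3 lines under each of the 3 scalings. On the deposited scale petA read 2.32, 2.82 and 2.47 in control cells and 3.38, 3.18 and 2.98 in JKD-driven cells.

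**Figure D3:**
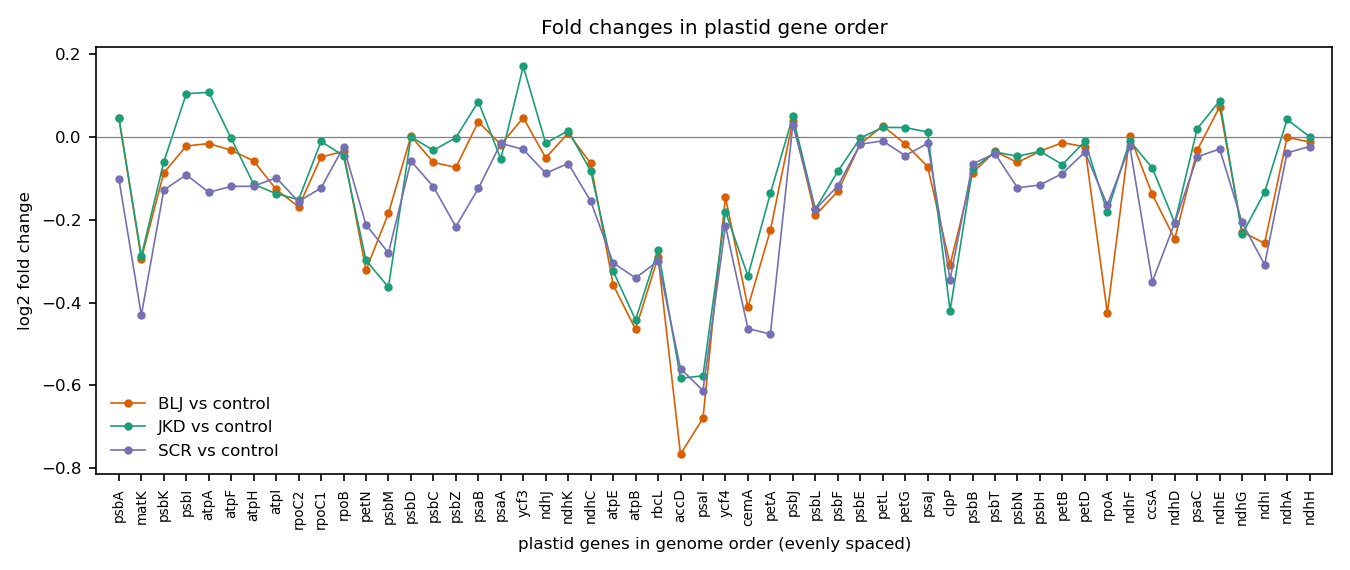
Log2 fold change against the control under quantile normalization (vertical axis) of the 54 plastid genes in genome order (horizontal axis, evenly spaced), in BLJ, JKD and SCR. The lowest points in each line are the neighbours accD (-0.77, -0.58 and -0.56) and psaI (-0.68, -0.58 and -0.61), and clpP, matK, psbM and rpoA are low outside the stretch from atpE to petA.

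The plastid genes also differed between arrays of 1 group. The mean deviation of the 54 genes from their own 12-array means was 0.02, 0.18 and 0.10 in control cells, -0.06, 0.11 and -0.15 in BLJ-driven cells, -0.05, 0.08 and -0.04 in JKD-driven cells and -0.11, 0.06 and -0.14 in SCR-driven cells, in replicate order on the log2 scale. In each group the array numbered 2 was highest. On that array 43, 45, 41 and 38 of the 54 genes had their highest value within the control, BLJ, JKD and SCR groups, or 79.6%, 83.3%, 75.9% and 70.4%, beside 30.7%, 37.2%, 34.1% and 35.6% of all probe sets. Nothing in the labels says that equal numbers share a day or batch. The gap between BLJ 2 and BLJ 3, at 0.11 and -0.15, was wider than any median difference between a line and the control over the 54 genes.

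**Figure D4:**
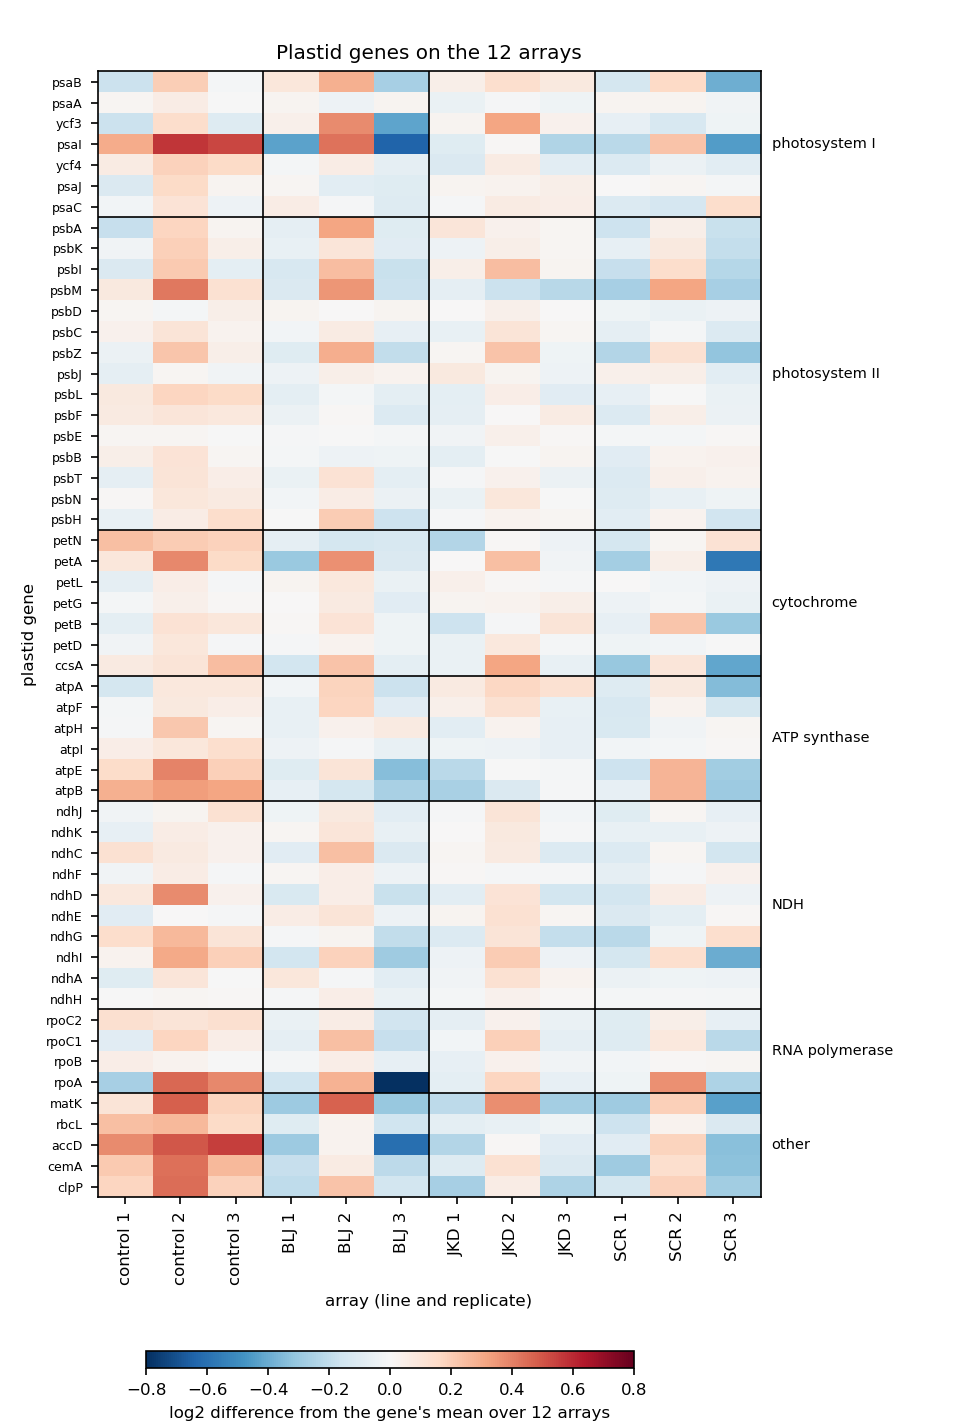
Difference of each plastid gene from its own 12-array mean (colour, log2 scale, limits -0.8 and 0.8) on the 12 arrays (horizontal axis) by class (vertical axis). The second array of each group is reddest, and the lower block (matK to clpP) is red in the controls and mostly blue in BLJ 1, BLJ 3, JKD 1, JKD 3, SCR 1 and SCR 3.

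Between the lines none of the 54 plastid genes was called, at adjusted p under 0.05 by limma. The background shares called were 1.71% for BLJ against JKD, 1.55% for BLJ against SCR and 0.49% for JKD against SCR, and at an unadjusted p under 0.05 the plastid genes numbered 0, 2 and 3, beside 12.1%, 16.4% and 10.5% of all probe sets. psbD and ndhE had 0.06 and 0.10 on the log2 scale in BLJ against SCR (adjusted p = 0.17 and 0.27). psbD, ndhE and atpA had 0.06, 0.12 and 0.24 in JKD against SCR (adjusted p = 0.323, 0.362 and 0.472). These 3 were named after their values were seen. The median over the 54 genes was -0.02 for BLJ against JKD, 0.04 for BLJ against SCR and 0.03 for JKD against SCR. Leaving out 1 array turned the first of these to 0.02 (without BLJ 3) and the second to -0.02 (without BLJ 2). For accD, called in BLJ alone, the direct differences were -0.18 ± 0.15 against JKD and -0.21 ± 0.15 against SCR (SE, adjusted p = 0.738 and 0.546), so the lines were not shown to differ. The comparisons with the control share the same 3 control arrays, and their results are not independent of one another.

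The direction of many plastid genes depended on the scaling. On the deposited scale, with no normalization between arrays, 28, 25 and 44 of the 54 genes were below 0 in BLJ, JKD and SCR, and after centring each array on its median 19, 18 and 33 were. Against the median of all probe sets, which median centring set at 0.07, 0.08 and 0.04, the counts were 28, 27 and 45 on the deposited scale and 28, 27 and 43 after median centring. Of the genes called under quantile normalization, only atpI was called in both BLJ and JKD under all 3 scalings. psbL was also called on the deposited scale (-0.15, adjusted p = 0.0117 in BLJ, and -0.14, adjusted p = 0.0134 in JKD) but not after median centring.

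Several bright genes changed their values between scalings. accD had -0.28, -0.09 and -0.26 on the deposited scale and -0.20, -0.01 and -0.21 after median centring, none called. rbcL had -0.09, -0.06 and -0.15, then -0.03, 0.01 and -0.12, and petN -0.14, -0.12 and -0.07, then -0.08, -0.06 and -0.03. clpP went to 0.26, 0.14 and -0.03 and then to 0.34, 0.23 and 0.01. psaB and petB were called higher in BLJ after median centring, by 0.55 (adjusted p = 0.0463) and 0.51 (adjusted p = 0.0493). In JKD psaB, ycf3, psbI and atpA were called higher on the deposited scale, and psaB, ycf3, psbI, psbZ, psbJ and atpA after median centring, with psaB at 0.53 and 0.61. In BLJ 18.5% of all probe sets were called under either of these scalings, and in JKD 25.2% and 26.4%.

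For 14 genes the fold change was below 0 in all 3 lines under the 3 scalings: psaA, psaI, psbL, psbB, psbT, petN, petD, atpI, ndhD, ndhG, ndhH, rpoC2, accD and cemA. No share of all probe sets is given for this count, so it is not set against a background. The lines share control arrays and the scalings share values, so the signs are not independent. Some of these changes were small, that of psaA among them. All 9 line arrays lay below all 3 control arrays for atpI and psbL on the deposited scale and for atpI alone after median centring, where the shares of all probe sets were 5.06% and 2.08%. The opposite held for petB on the deposited scale and for petB and psbJ after median centring, with shares of 5.84% and 9.6%.

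**Figure D5:**
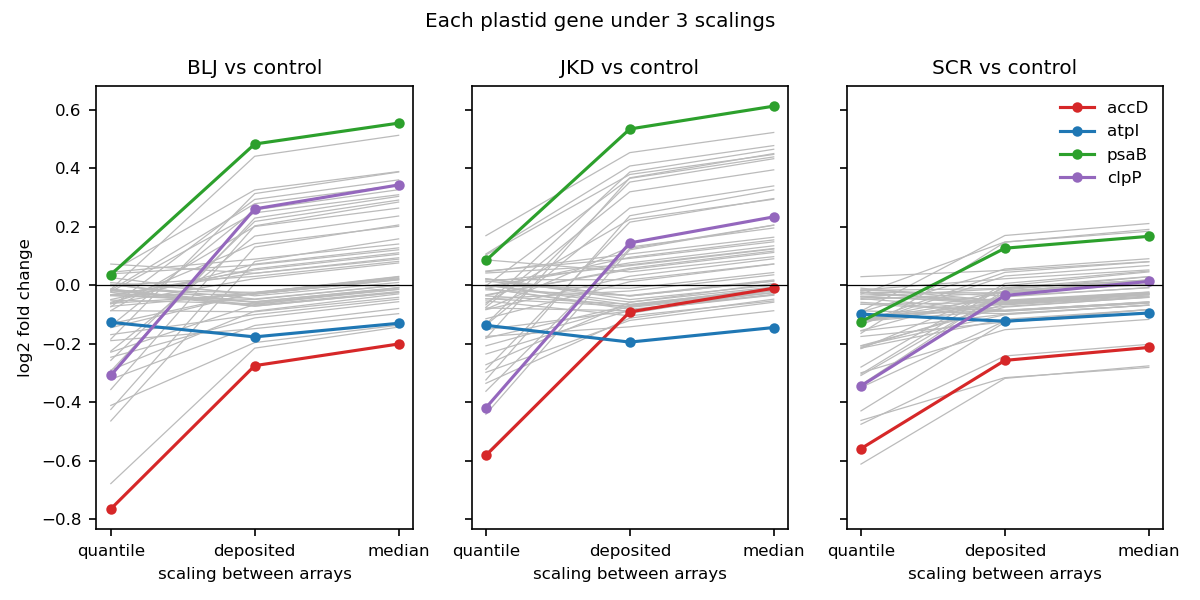
Log2 fold change against the control (vertical axis) of each plastid gene under quantile normalization, the deposited scale and median centring (horizontal axis), in BLJ, JKD and SCR; grey lines are genes, with accD, atpI, psaB and clpP in colour. atpI stays between -0.19 and -0.10 throughout, while clpP crosses 0 in each line and psaB is higher on the deposited and median-centred scales.

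Other genes of plastids and organelles were taken from fixed lists. Their values, and those of the markers below, are under quantile normalization, and values under the other scalings are not given. None of the 15 plastid-encoded ribosomal protein genes was called in any line. In each line 14 of 15 were below 0, beside 47.3%, 46.2% and 48.1% of all probe sets, with medians of -0.17, -0.13 and -0.24. They too were highest on the second arrays, with mean deviations of 0.26 on control 2, 0.23 on BLJ 2, 0.11 on JKD 2 and 0.13 on SCR 2. Of 16 probe sets for mitochondrial genome genes, those of nad7 and nad2, subunits of respiratory complex I, fell in BLJ and JKD. nad7 fell by 0.22 and 0.23 on the log2 scale (adjusted p = 0.0129 and 0.0192) and nad2 by 0.30 and 0.31 (adjusted p = 0.0084 and 0.0156), and none of the 16 was called in SCR.

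Nucleus-encoded partners of these complexes were measured sparsely. Of 10 photosynthesis genes with a named probe set, 8 passed the filter, and 1 rose: ATPC1, the gamma subunit of the plastid ATP synthase, by 0.15 in BLJ (adjusted p = 0.0262) and 0.22 in JKD (adjusted p = 0.01), with 0.12 in SCR (adjusted p = 0.121). Median fold changes of the 8 were 0.01, 0.04 and 0.07. PSBY, for a small photosystem II subunit, had 0.02, 0.17 and 0.14 and did not pass. Of the list for plastid transcription 1 of 21 genes was measured, AT5G15700, which encodes a nucleus-encoded phage-type polymerase, and it had -0.05, 0.00 and -0.01 (adjusted p = 0.326, 0.971 and 0.914). The Clp subunit genes CLPP4 and AT1G09130, the 2 measured partners of clpP, lay between -0.02 and 0.17 without a call, and none of 4 partners of accD was measured.

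Few markers of other cells were called. Among root hair (EXPA7, EXPA18), root cap (AT4G04460), xylem (LHW), phloem (OPS), and lateral root (LBD16, LBD29) markers, 1 of 7 was called, OPS at -0.12 in BLJ (adjusted p = 0.0371). The 7 markers read from 0.678 (EXPA7) to 1.44 (LHW) over the 12 arrays, which does not settle whether they were expressed. Several were separate from the controls without passing the test. Over all probe sets, every line array lay below every control array for 10.4%, 11.3% and 9.54% in BLJ, JKD and SCR. The reverse held for 9.55% in SCR. EXPA7 and EXPA18 lay below every control array in JKD (-0.15 and -0.11) and SCR (-0.20 and -0.15, adjusted p = 0.0842 and 0.136). LBD16 did so in JKD (-0.15) and SCR (-0.28, adjusted p = 0.0671), and LBD29 in all 3 lines (-0.06 each). OPS was also below every control in JKD (-0.10), and LHW was above every control in SCR (0.19, adjusted p = 0.158). RCA, a leaf gene for Rubisco activase, rose in BLJ by 0.21 (adjusted p = 0.0303), with 0.15 and 0.12 in JKD and SCR. The cortex genes AT1G09750 and AT3G21670 rose in BLJ by 0.47 (adjusted p = 0.0163) and 0.13 (adjusted p = 0.047). The other cortex loci were not called in BLJ, with AT1G62510 at 0.04, AT5G02000 at -0.01 and AT1G62500 at -0.02. The part of these markers in the plastid gene results was not tested.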

How the data were processed

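The deposited table holds 1 linear intensity per probe set and array, made with MAS5 per the submitters' processing notes, with version, background method and scaling not given in the sources used here. Per the labels' protocols, both a one-cycle and a two-cycle labelling were used, and which array had which could not be resolved. Groups came from the titles, and 0 columns were unused. From the deposited intensities, 55 control probe sets were left out and the rest were quantile-normalized; 0.703, their 20th percentile, was added before taking log2. Fold changes on this log2 scale, computed from the normalized values with 0.703 added, understate the changes of dim genes. A filter on the mean removed the dimmest 30%, leaving 15923 of 22746. limma 3.58.1 in R 4.3.3 fitted 4 group means over 12 arrays with trend and robust moderation and Benjamini-Hochberg adjustment over all probe sets, in 6 comparisons. A gene was called, and said to rise or fall, at an adjusted p under 0.05. Linear means are ± SD over 3 arrays, whose number limits the precision.

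Genes were matched by symbol in the platform's annotation, which leaves 8730 probe sets unnamed and 503 with several genes. RefSeq TAIR10.1 gave names and gene order only, and 13436 of 13513 single-gene probe sets matched it. Array values go to genes called in any line, to accD, rbcL, clpP, psbA, psaA and the rpo genes, and to the 2 NDH genes with the smallest p; the other genes with array values, psaI and atpB, were chosen after their values were seen. List members named are those called, at most 4 per comparison, or otherwise examples given as values. The members, classes and lists were chosen with earlier results of these data known. The test was tried on simulated data first. Same-numbered JKD and control arrays correlated in their deviations from group means at 0.28, 0.32 and 0.39. All exceeded 0.1, so they were taken as paired, from the data and not from the labels. JKD 1 correlated more with control 2, at 0.355, than with control 1. The pairing is therefore not settled, and the blocked p-values in JKD rest on it. Blocked values are given beside JKD results that they change. The block also added calls in BLJ and SCR, which are named without their p-values. Alternatives were other scalings, offsets, filters, moderation, arrays in the fit and a replicate block.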

Additional observations from a re-analysis of the deposited data

How the results depend on the processing

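Counts of called plastid genes in BLJ, JKD and SCR, 5, 4 and 0 as reported, became 2, 7 and 0 on the deposited scale and 3, 7 and 0 after median centring. These pool both directions. On the deposited scale 2 were lower in BLJ, and 3 lower and 4 higher in JKD, beside 18.5% and 25.2% of all probe sets called. After median centring 1 was lower and 2 higher in BLJ, and 1 lower and 6 higher in JKD, beside 18.5% and 26.4%. The counts became 0, 0 and 0 with values under 1 set to 1, beside 0.295%, 0.0126% and 0.0126% of all probe sets called. They were 4, 0 and 0 under the stricter filter, beside 3.21%, 1.28% and 0.273% of all probe sets. The counts were 5, 1 and 0 without trend and robust moderation, beside 2.34%, 0.942% and 0.0314% of all probe sets. With only the 6 arrays compared they were 0, 0 and 0, beside 0.214%, 0.0816% and 0%. Without control 3, BLJ 1 and BLJ 3 the median log2 fold change over the 54 genes was 0.01, -0.04 and -0.12. That fit leaves BLJ with BLJ 2 alone, the BLJ array highest in plastid genes, assumed to vary like the other groups. Earlier work on these data named the 3 arrays as high in heat shock genes, which Hsp70-2, highest here on SCR 2 at 1.59, did not show. No offset and no filter gave counts of 5, 4 and 0 again. Leaving out 1 array gave 1 to 7, 0 to 5 and 0 to 1. Between lines no plastid gene was called under any alternative run.

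Same-numbered arrays were not taken as paired in BLJ or SCR with control, because the arrays numbered 1 did not deviate together. In replicate order their deviations from group means correlated at -0.13, 0.62 and 0.52 in BLJ and at -0.12, 0.37 and 0.10 in SCR. With the replicate block the counts were 10, 9 and 7, which added psaI, atpB, ndhD, rpoC2 and cemA in BLJ, ycf4, ndhD, accD, cemA and clpP in JKD, and ycf4, psbL, petA, atpI, rbcL, accD and cemA in SCR.

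Among accD, rbcL, petN, psbL, atpI, clpP, psbA, psaA, ndhD, ndhG and the rpo genes, directions turned as follows, and the cause was not tested. Genes outside this set are left out, though petA also turned in JKD on the deposited scale. On the deposited scale clpP, rpoA and rpoC1 became 0.26, 0.13 and 0.056 in BLJ and 0.14, 0.37 and 0.095 in JKD, and rpoA 0.15 in SCR. After median centring they became 0.34, 0.21 and 0.11 in BLJ and 0.23, 0.45 and 0.15 in JKD, where rbcL became 0.0057, and clpP, rpoA and rpoB 0.013, 0.19 and 0.0024 in SCR. With BLJ 2 alone against controls 1 and 2, rpoA, rpoB and rpoC1 became 0.19, 0.015 and 0.20. Leaving out 1 array, psbA ranged from -0.088 to 0.13 in BLJ and -0.050 to 0.13 in JKD, rpoC1 from -0.17 to 0.041 and -0.091 to 0.054, and psaA from -0.035 to 0.0015 in BLJ and -0.031 to 0.0023 in SCR. Intensities near 0.8 limit what a difference can show: 18 of the 54 genes had means under 1.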

Other observations

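The probe set listed with both copies of ycf2, a large plastid gene that encodes part of a protein import motor and is read by the nucleus-encoded polymerase, was lower in all 3 lines. It read 1.10, 1.07 and 1.07 in control cells, 0.855, 0.915 and 0.819 in BLJ-driven cells, 0.857, 0.915 and 0.831 in JKD-driven cells and 0.839, 0.935 and 0.820 in SCR-driven cells. Under quantile normalization all 9 line arrays were below the controls. ycf2 fell by 0.19, 0.18 and 0.18 on the log2 scale (SE 0.03, adjusted p = 0.0107, 0.0192 and 0.0409 by limma). Its fold changes under the other scalings and in fits leaving out 1 array are not given here. Its intensities were dim, so how firm these calls are is not known. The probe set with both copies of ycf1, a gene needed for protein import into plastids, overlapped the controls, with -0.11, 0.06 and -0.18 (adjusted p = 0.784, 0.87 and 0.599). The probe set of ndhB, an NDH subunit gene in the inverted repeat, was below the filter and was not tested.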
